A study of Homo sapiens with 9 samples.

Results

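The 14-3-3 genes encode a family of small acidic adaptor proteins, and RNA polymerase II (RNAPII) peaks over all 7 human members were examined here: YWHAE (epsilon), YWHAZ (zeta), YWHAB (beta), YWHAG (gamma), YWHAH (eta), YWHAQ (theta) and SFN (sigma, stratifin). The family was chosen by a measured value, the significance score of the YWHAE start-site peak in the list without doxycycline, so that score is given only as a description. Its members were then taken by name, 7 of 20176 protein-coding genes, and every peak that overlapped a gene span widened by 500 bp on each side was assigned to it. This gave 207 peaks over 5 lists.

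The lists come from RNAPII ChIP-seq (sequencing of DNA precipitated with the polymerase) in HEK293 cells, an established human embryonic kidney line, to follow the polymerase when RECQL5, a DNA helicase that binds it, is depleted or overproduced. In the hairpin arm HEK293 cells had received lentiviral short hairpin RNAs: a control shRNA, for which the study's methods name an empty vector, or RECQL5 shRNA5 or RECQL5 shRNA7, both against RECQL5. In the doxycycline arm the cells were HEK293 T-REx, selected for a plasmid with full-length RECQL5 under a doxycycline-responsive promoter, and grown at 0.0 or 1.0 ng/ml doxycycline. The cells at 0.0 ng/ml carry the plasmid too, and in both arms the endogenous RECQL5 gene is present. A further 4 libraries with non-specific IgG (control shRNA, shRNA5, shRNA7 and untreated) were taken to be the background of peak calling and were not analysed here. With 9 samples in 9 groups, every group is a single library, so the differences below have neither a replicate check nor a p-value. Intervals in brackets are exact 95% intervals that cover counting error only.

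14-3-3 proteins form homodimers and heterodimers, and each monomer has a groove that binds a phosphorylated serine or threonine of a partner protein. By binding they hold some kinases in an inactive form, keep phosphatases and transcription regulators in the cytoplasm, and restrain pro-apoptotic proteins. Most members are made in nearly all cells, whereas SFN is known as an epithelial gene induced by p53.

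The promoters of 5 members are shown because the start-site peaks described below sit on 4 of them, while SFN, the single-exon member, is the contrast. Each sequence runs from 220 bases before to 30 bases after the RefSeq start site and is written 5′ to 3′ on the gene's strand. The sequences were taken from RefSeq promoter windows of the GRCh38.p14 assembly and found once each, letter for letter, in GRCh37, whose positions are given. Capitals mark matches to any of 4 motifs: the letters CCAAT of the CCAAT box, the letters GGGCGG of the GC box, the letters TATAAA of the TATA box, and the cyclic AMP response element TGACGTCA. Both strands were searched, so a match on the opposite strand appears as the reverse complement.
YWHAE promoter, chr17:1303487-1303736 (minus strand): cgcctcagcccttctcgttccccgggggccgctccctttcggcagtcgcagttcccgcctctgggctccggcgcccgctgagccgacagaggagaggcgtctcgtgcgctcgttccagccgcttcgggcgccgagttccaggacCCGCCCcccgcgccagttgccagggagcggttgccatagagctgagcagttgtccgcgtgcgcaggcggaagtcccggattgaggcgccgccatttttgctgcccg
YWHAG promoter, chr7:75988279-75988528 (minus strand): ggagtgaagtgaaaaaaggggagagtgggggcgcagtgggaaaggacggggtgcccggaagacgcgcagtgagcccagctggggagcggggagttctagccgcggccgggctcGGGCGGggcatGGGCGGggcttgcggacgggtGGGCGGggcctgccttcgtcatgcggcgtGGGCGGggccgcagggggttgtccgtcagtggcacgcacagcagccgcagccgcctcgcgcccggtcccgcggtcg
YWHAQ promoter, chr2:9771097-9771346 (minus strand): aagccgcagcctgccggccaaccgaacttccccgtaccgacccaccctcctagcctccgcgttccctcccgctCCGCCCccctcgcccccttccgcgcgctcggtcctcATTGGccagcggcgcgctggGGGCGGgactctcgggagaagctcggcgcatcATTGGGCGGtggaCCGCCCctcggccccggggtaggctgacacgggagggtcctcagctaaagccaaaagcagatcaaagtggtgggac
YWHAH promoter, chr22:32340301-32340550 (plus strand): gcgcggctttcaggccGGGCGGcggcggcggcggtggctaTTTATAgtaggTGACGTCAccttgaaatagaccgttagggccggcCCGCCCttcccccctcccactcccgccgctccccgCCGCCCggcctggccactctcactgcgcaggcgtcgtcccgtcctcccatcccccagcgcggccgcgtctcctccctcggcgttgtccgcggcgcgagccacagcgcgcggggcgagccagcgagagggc
SFN promoter, chr1:27189420-27189669 (plus strand): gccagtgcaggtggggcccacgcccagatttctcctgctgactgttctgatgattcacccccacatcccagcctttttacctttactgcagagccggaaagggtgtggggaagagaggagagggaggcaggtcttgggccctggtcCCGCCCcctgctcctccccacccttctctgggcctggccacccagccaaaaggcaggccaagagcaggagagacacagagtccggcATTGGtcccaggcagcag

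All 6 RefSeq windows searched, those above in full length (300 bases) and that of YWHAB, held GGGCGG, against 45% of the 35116 windows in the table. YWHAG held 4 copies from 107 to 46 bases before its start, all on its own strand, while YWHAE held a single copy 76 bases before its start. CCAAT was found in YWHAQ (3 copies), YWHAB and SFN, against 34.6% of windows. In YWHAQ 1 of these, at 59 bases before the start on the opposite strand, overlaps a GGGCGG. The SFN match is on the opposite strand and past the start site, from base 13 of the gene. YWHAH alone held TATAAA, on the opposite strand 180 bases before its start, against 11.5% of windows. It alone also held TGACGTCA, which is a palindrome, 169 bases before its start, against 1.85% of windows. In base composition the members fell apart into the 5 YWHA promoters and SFN. The YWHA windows were 69.7 to 73.7% GC with 29 to 44 CpG dinucleotides, above the median window (58.7% GC and 14 CpG). SFN had 63.7% GC but 7 CpG, and 36.8% of all windows held fewer. A match is a description of letters in the window and not evidence of a bound factor.

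The peak lists differed in ways that bear on every value. They held from 5287 peaks (control shRNA) to 47060 (no doxycycline), and 842310 to 6698771 tags inside peaks. Median peak length was 1834 to 2024 bp in the hairpin arm and 622 to 689 bp in the doxycycline arm, and the fewest tags in any listed peak were 26 to 35 against 9 to 11, so a weak site could enter a doxycycline list and not a hairpin list. A tag is 1 sequenced read counted by the authors, not normalised, and the lists give no library totals. Levels are therefore compared only within an arm, and each fold is read beside the median fold of all genes. Over RECQL5 itself there was no peak in control shRNA or upon shRNA5, 748 tags upon shRNA7, 1171 without doxycycline and 1623 with it. RNAPII over the gene does not check a knockdown that acts on the mRNA. Of 4 genes taken as active in HEK293, NEFM had no peak in any list, PAX2 had 18 tags in 1 list, EYA1 was found upon both hairpins and NEFL in every list but the control. The defining genes of lymphocytes (PTPRC, CD3E), hepatocytes (ALB), basal keratinocytes (KRT5) and melanocytes (TYR) had no peak in any of the 5 lists.

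RNAPII peaks were assigned to 6 of the 7 members in control shRNA, 7 upon shRNA5, 6 upon shRNA7 and 7 in either doxycycline list. Over all protein-coding genes the share with a peak was 22.7% in control shRNA, 52.6% and 60.6% upon shRNA5 and shRNA7, and 64.2% and 53.6% in the lists without and with doxycycline. In control shRNA 1 of the 6, the peak assigned to YWHAB, lay past the gene end and within the 500 bp margin only, so that 5 members had a peak over the gene itself. The members missing were SFN in control shRNA and YWHAE upon shRNA7. In the control list, which has the fewest peaks, YWHAE, YWHAZ, YWHAG and YWHAQ had a peak within 500 bp of their first start site. Without doxycycline all 7 members did. The share of all genes with such a peak is not given here, so the 4 and the 7 are not read as particular to the members. Of all 207 summits 143 lay in introns, 36 in UTRs, 4 in coding exons, 2 in non-coding exons, 21 downstream of the gene and 1 upstream, for genes that are mostly intron.

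**Figure D1:**
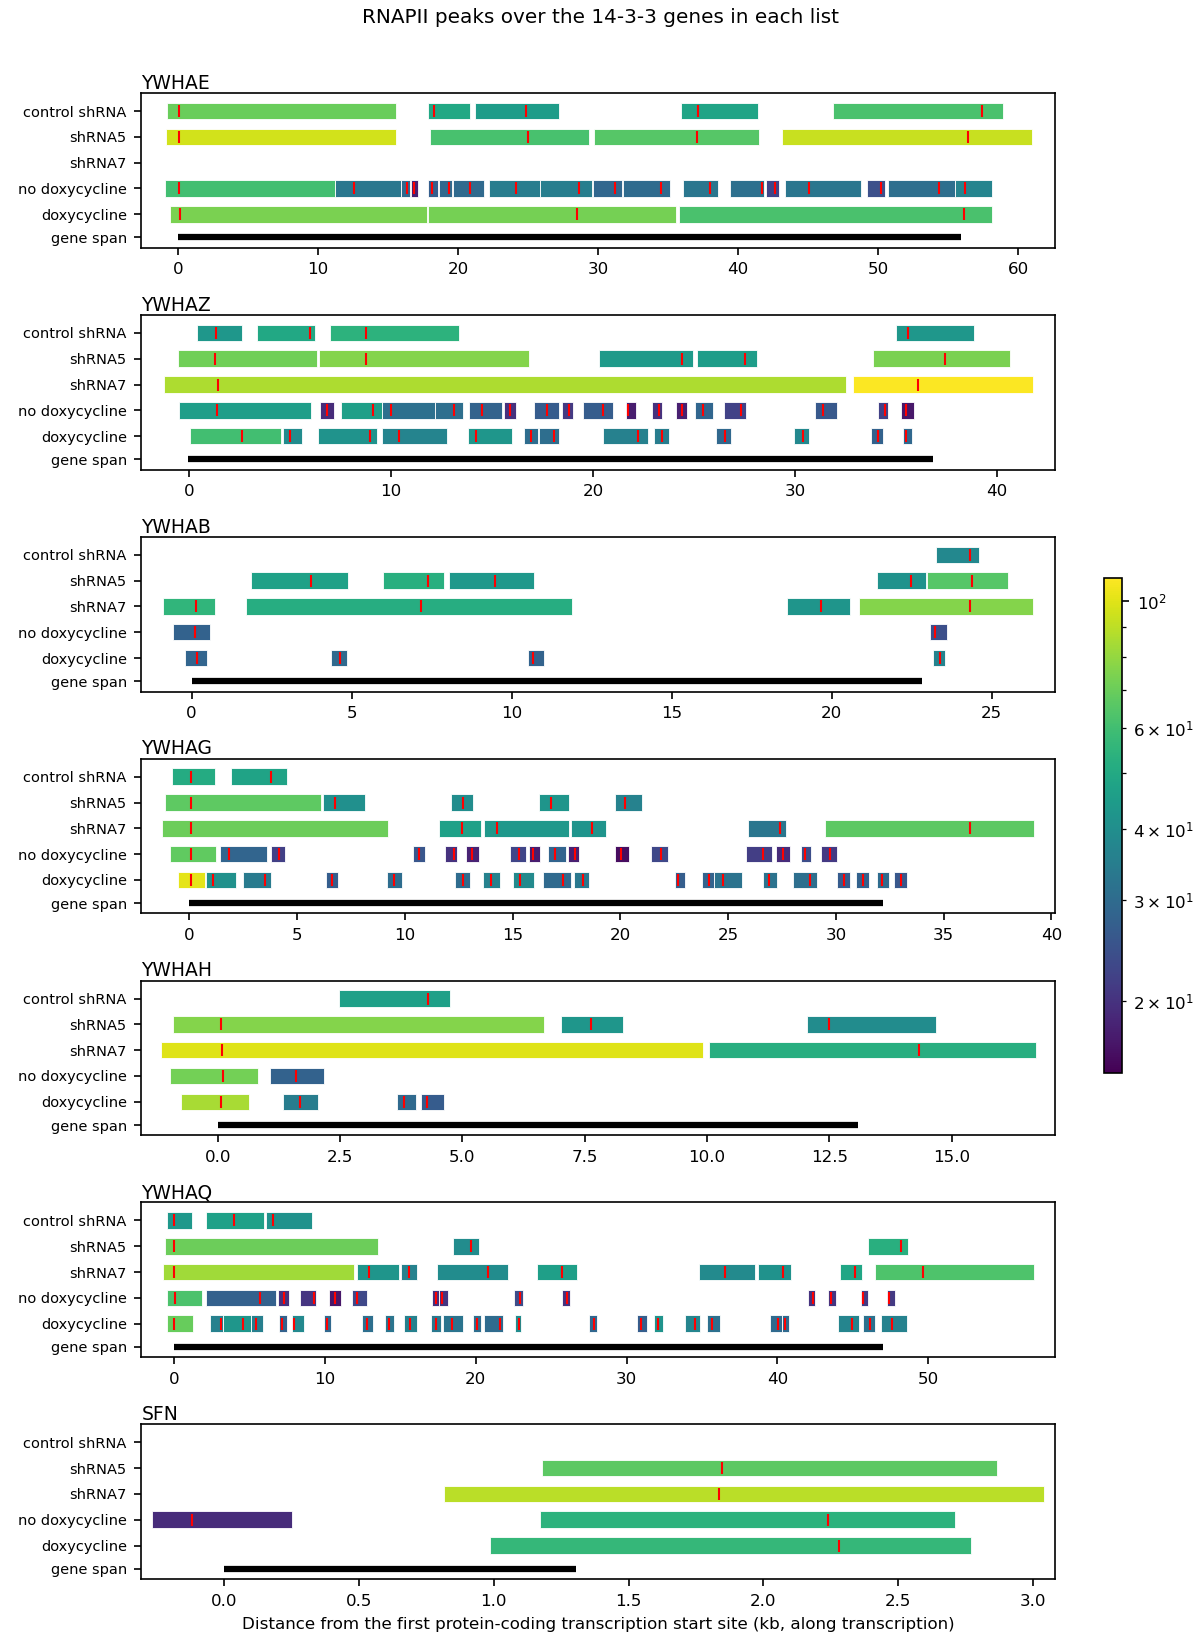
Peaks of the 5 lists over each 14-3-3 gene, drawn to scale within each panel against the distance in kb from the first protein-coding start site, along transcription. Colour gives tags per kb of peak on a log scale, red ticks mark summits and the black bar is the annotated gene. YWHAE is empty upon shRNA7, YWHAZ is covered by 2 peaks upon shRNA7, and both doxycycline lists split YWHAZ, YWHAG and YWHAQ into many short peaks.

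YWHAE had the most tags of the family in each of the 4 lists that held it. It encodes 14-3-3 epsilon, a partner of CDC25 phosphatases, and spans 55.9 kb on the minus strand (chr17:1247569-1303516, GRCh37). Its peaks held 2572 tags in control shRNA, 4695 upon shRNA5, 2079 at 0.0 ng/ml doxycycline and 4013 at 1.0 ng/ml, and no peak was listed upon shRNA7. These sums were the 15th, 25th, 15th and 3rd highest among the genes with a peak in those lists (4579, 10615, 12948 and 10824 genes). Peaks covered 70.1% of the gene in control shRNA, 92% upon shRNA5, 92.2% at 0.0 ng/ml doxycycline and 99.4% at 1.0 ng/ml, and YWHAE supplied 63.1%, 46.3%, 51.7% and 60.4% of the family's tags in these 4 lists.

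The start-site peak of YWHAE was long in each list that held it, from 12.2 kb without doxycycline to 18.3 kb with it, reaching from the promoter into the first intron. Its summit lay 94 bp (control shRNA), 77 bp (shRNA5), 59 bp (no doxycycline) and 115 bp (doxycycline) past the start site, just inside the gene and past the bases printed above. Its tags numbered 1139 and 1580 in control shRNA and shRNA5, and 732 and 1351 without and with doxycycline. The peak without doxycycline (chr17:1292303-1304455, 732 tags) is the one that chose the family, with a significance score of 3233 and a fold enrichment of 175. The score does not follow tag number within the gene: with doxycycline the start-site peak had 1351 tags and a score of 1325, whereas the middle peak of the gene had 1279 tags and a score of 3151.

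A second block of RNAPII stood at the 3′ end of YWHAE. The peak over the annotated end held 752 tags in control shRNA (12135 bp long, summit 1468 bp past the end), 1655 upon shRNA5 (17791 bp, summit 511 bp past the end) and 1383 with doxycycline (22361 bp, summit 212 bp past the end). Without doxycycline 2 peaks lay at the end, with 244 tags. Between both blocks the control list held 3 intronic peaks of 150 to 269 tags, with 44.8 to 49.4 tags per kb against 69.7 at the start site and 62 at the end. Upon shRNA5 the corresponding region held 2 peaks of 695 and 765 tags. RNAPII density was thus lowest in the middle of the gene in both hairpin-arm lists that held it.

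With doxycycline the number of YWHAE peaks was 3 in place of 18, while the covered length was 58.4 kb against 54.7 kb and the tags 4013 against 2079. Its 3 peaks were nearly even, with 1351, 1279 and 1383 tags and 61.9 to 73.7 tags per kb. Peak number and tags thus pointed opposite ways over this gene, with long peaks listed where short neighbouring ones had been, and the 17 peaks outside the start site without doxycycline held 9 to 178 tags each. The fold in tags was 1.93 (1.83 to 2.04), against a median of 0.957 over 10608 genes with a peak in both lists, and it stood higher than in 92.9% of them.

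Upon shRNA5 YWHAE had 1.83 times the tags of control shRNA (1.74 to 1.92), the smallest fold of the 6 members in both lists and below the median of all genes (3.23). Upon shRNA7, the list with most tags, the nearest peaks ended 114 kb away on its 3′ side (161 tags) and began 32.7 kb away on its 5′ side (217 tags). YWHAE was not alone in this. Of 4475 genes with a peak in each of the other 4 lists, 180 (4.02%) had none upon shRNA7, and YWHAE ranked 3rd of the 180 by control tags, after HNRNPC (3131) and RBM39 (2707), 2 genes for RNA-binding proteins. The genes without a peak upon shRNA7 made up 12.7% of the 448 genes with the most control tags and 1.39% of the 2238 with the fewest, and YWHAE was among the former. When the other lists were asked in turn, 52.9% of such genes lacked a peak in control shRNA, 0.302% upon shRNA5, 0.232% at 0.0 ng/ml doxycycline and 1.29% at 1.0 ng/ml. Whether YWHAE lost RNAPII upon shRNA7, was left out when peaks were called, or is missing because the list used here holds only part of the called peaks was not tested. A missing peak in any list can be read no further than that, and a gene with no listed peak is not a gene with no tags.

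Among 4295 genes with a peak in every list, those whose tags were most like those of YWHAE were MATR3 (ENSG00000280987), MDM2 and DDX3X. The measure was the Euclidean distance of log2 tags over the 4 lists in which YWHAE had peaks (0.398, 0.605 and 0.702). Genes that, like YWHAE, lacked a peak upon shRNA7 were not candidates. Upon shRNA7 MATR3, MDM2 and DDX3X had 1003, 10460 and 5665 tags, which did not enter the distance. MDM2 encodes the ubiquitin ligase of p53, DDX3X an RNA helicase and MATR3 a nuclear matrix protein.

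YWHAZ encodes 14-3-3 zeta, a partner of many kinases and their substrates, and spans 36.9 kb (chr8:101928751-101965616, minus strand). It held 749 tags in control shRNA, 2117 upon shRNA5, 3883 upon shRNA7, 799 at 0.0 ng/ml doxycycline and 879 at 1.0 ng/ml. Within the hairpin arm shRNA7 was highest and the control lowest, and both doxycycline lists lay close to one another. Folds over control shRNA were 2.83 (2.6 to 3.08) upon shRNA5 and 5.18 (4.79 to 5.61) upon shRNA7, each below the median of all genes, and the doxycycline fold was 1.1 (0.999 to 1.21). The control list held 4 peaks over 36% of the gene, whereas upon shRNA7 a single peak of 33.8 kb with 2914 tags ran over its start and most of its length, with a score of 266, and a second peak with 969 tags closed the 3′ end. The summit at the 5′ end lay 1320 to 1443 bp past the first start site in 4 lists, and these summits were within 121 bp of a downstream coding start site at 1321 to 1322 bp. With doxycycline the summit was 2637 bp past the first start, 147 bp before another coding start. The annotation gives YWHAZ 18 protein-coding start sites, so a summit near one of them carries little weight.

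YWHAG encodes 14-3-3 gamma and spans 32.2 kb with 1 annotated protein-coding start (chr7:75956116-75988308, minus strand). Its tags were 226 in control shRNA, 705 upon shRNA5, 1771 upon shRNA7, 408 at 0.0 ng/ml doxycycline and 599 at 1.0 ng/ml. The order was control, shRNA5, shRNA7 in the hairpin arm, and doxycycline above no doxycycline, with folds of 3.12 (2.68 to 3.64), 7.84 (6.82 to 9.04) and 1.47 (1.29 to 1.67). At the start site the summit was 56 to 92 bp past the start in all 5 lists. The 4 GGGCGG copies printed above lie 46 to 107 bases before the start. In control shRNA the peaks ended 27.7 kb before the end of the gene, upon shRNA5 11.2 kb before it, while upon shRNA7 a peak of 646 tags ran 7.01 kb past it. A peak of 281 tags upon shRNA5 lay 612 bp past the end and so just outside the widened span.

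YWHAQ encodes 14-3-3 theta, also called tau, and spans 47 kb (chr2:9724096-9771126, minus strand). It held 376 tags in control shRNA, 1199 upon shRNA5, 2477 upon shRNA7, 437 at 0.0 ng/ml doxycycline and 823 at 1.0 ng/ml, again in the order of YWHAG. Folds were 3.19 (2.84 to 3.59) and 6.59 (5.91 to 7.36) over control shRNA, near the median gene in either list. With doxycycline the fold was 1.88 (1.68 to 2.12), higher than in 92.2% of genes, and the peak number was 25 against 14. Summits at the start site lay 7 to 35 bp past it, the closest of the family. The 3′ reach differed between lists as it did for YWHAG: the last control peak ended 37.9 kb before the end of the gene and the last shRNA7 peak 9.96 kb past it. These distances cover assigned peaks only: a control peak of 105 tags lay 3892 bp past the end and an shRNA5 peak of 331 tags 1751 bp past it, both within the stretch that the shRNA7 peak covered.

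YWHAH encodes 14-3-3 eta and spans 13.1 kb (chr22:32340508-32353590, plus strand). Its tags were 104 in control shRNA, 733 upon shRNA5, 1451 upon shRNA7, 160 at 0.0 ng/ml doxycycline and 168 at 1.0 ng/ml. Both hairpin lists were far above the control, by 7.05 (5.73 to 8.74) and 14 (11.4 to 17.2), while the doxycycline lists did not differ beyond counting error (1.05, 0.841 to 1.31). The control list had no peak at the first start site, only an intronic peak of 104 tags, although the start-site peak was the main one in the other lists (576, 1103, 129 and 119 tags), with its summit 51 to 91 bp past the RefSeq start printed above. A read-through gene (ENSG00000285404) and the antisense YWHAH-AS1 overlap these peaks, and their RNAPII cannot be told apart from that of YWHAH.

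YWHAB encodes 14-3-3 beta and spans 22.8 kb (chr20:43514343-43537173, plus strand). Tags numbered 51 in control shRNA, 586 upon shRNA5, 1115 upon shRNA7, 45 at 0.0 ng/ml doxycycline and 62 at 1.0 ng/ml. Per kb of gene YWHAB was the sparsest of the members with a peak in the control and in both doxycycline lists. Its folds were the largest of the family, 11.5 (8.62 to 15.6) upon shRNA5 and 21.9 (16.5 to 29.6) upon shRNA7, but the control value of 51 tags does not lie over YWHAB. It is 1 peak past the 3′ end of the gene, with its summit 26 bp from the start site of the next gene, PABPC1L, a gene for a poly(A)-binding protein, so neither fold is one over YWHAB itself. Upon shRNA5 and shRNA7 the peak there had its summit 30 and 45 bp from that start. No YWHAB start-site peak was listed in control shRNA or upon shRNA5, and those of the other lists held 89 tags (shRNA7), 32 (no doxycycline) and 19 (doxycycline).

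SFN encodes 14-3-3 sigma, which holds cyclin-dependent kinase complexes in the cytoplasm after DNA damage, and it is a gene of 1.31 kb (chr1:27189640-27190947, plus strand). No peak was listed in control shRNA, and the others held 112 (shRNA5), 199 (shRNA7), 93 (no doxycycline) and 101 (doxycycline) tags. These peaks lay mostly past the gene: the main summit was 539 bp past its end upon shRNA5, 528 bp upon shRNA7 and 973 bp with doxycycline, and the peak upon shRNA5 covered 9.79% of the gene. A start-site peak was found only in the list without doxycycline, with 10 tags, close to the fewest any peak of that list had (9), and its summit lay 118 bp before the start. SFN was thus the 1 member without a start-site peak of more than 10 tags.

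**Figure D2:**
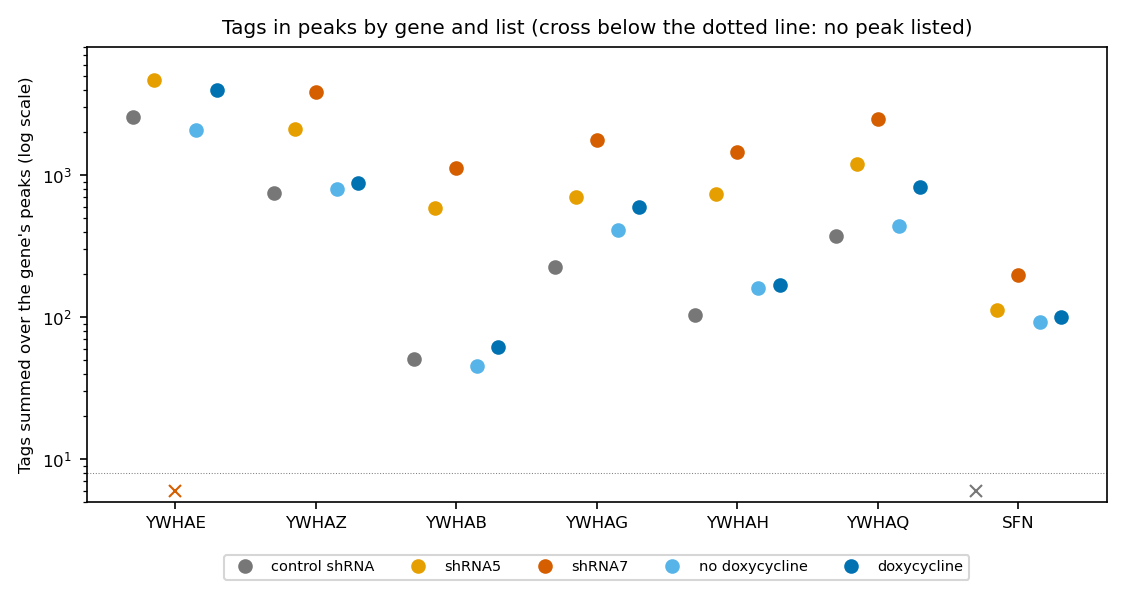
Tags summed over the peaks of each gene (log axis) in the 5 lists, 1 point per library, with no error bar because there are no replicates. YWHAE is highest in the 4 lists that hold it, and the YWHAZ, YWHAB, YWHAG, YWHAH and YWHAQ points are in the order control shRNA, shRNA5, shRNA7.

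Per kb of gene, YWHAE stood first among the long members in control shRNA (46 tags per kb), followed by YWHAZ (20.3). YWHAQ, YWHAH and YWHAG came next with 7.99, 7.95 and 7.02 tags per kb, neighbours that did not differ beyond counting error, and YWHAB was last with 2.23. Without doxycycline the order was SFN (71.1), YWHAE (37.2), YWHAZ (21.7), YWHAG (12.7), YWHAH (12.2), YWHAQ (9.29) and YWHAB (1.97), in which YWHAG and YWHAH did not differ beyond counting error. The peaks of SFN lie mostly outside a short gene, so its value per kb of gene is above the level over the gene itself in each list. With doxycycline the order was SFN (77.2), YWHAE (71.7), YWHAZ (23.8), YWHAG (18.6), YWHAQ (17.5), YWHAH (12.8) and YWHAB (2.72), in which 2 pairs of neighbours, SFN with YWHAE and YWHAG with YWHAQ, did not differ beyond counting error. Upon shRNA5 SFN (85.6) and YWHAE (83.9) led, YWHAZ (57.4) and YWHAH (56) followed, and YWHAB (25.7), YWHAQ (25.5) and YWHAG (21.9) closed the order. The pairs SFN and YWHAE, YWHAZ and YWHAH, and YWHAB and YWHAQ did not differ there beyond counting error. Upon shRNA7 it was SFN (152), YWHAH (111), YWHAZ (105), YWHAG (55), YWHAQ (52.7) and YWHAB (48.8). There YWHAH with YWHAZ and YWHAG with YWHAQ did not differ beyond counting error. YWHAZ stood above YWHAB in each of the 5 lists.

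Across the family, tags upon shRNA5 were higher than in control shRNA for 6 of 6 members with a peak in both lists, and at least 2-fold higher for 5. Of 4552 genes compared in the same way, 78.8% were at least 2-fold higher and 0.0659% at least 2-fold lower, so the members' count was close to the background, and their median fold (3.15) was close to that of all genes (3.23). Without YWHAB, whose control tags lay outside the gene, 5 of 5 were higher, 4 of them at least 2-fold, with a median of 3.12. Upon shRNA7 5 of 5 members were at least 2-fold higher, against 95.7% higher and 0.274% lower among 4384 genes, with a median of 7.84 against 6.64, and without YWHAB 4 of 4 with a median of 7.21. The YWHAG and YWHAQ sums upon shRNA7 include peaks of 646 and 664 tags with summits 4012 and 2640 bp past the gene end. Nearby peaks of 281 tags upon shRNA5 (YWHAG) and 105 in control shRNA (YWHAQ) lay outside the widened spans and were not counted. The members' medians are therefore not read as above that of all genes. Both hairpin comparisons share the control list. Summed over the family the ratio was 2.49 upon shRNA5 and 2.67 upon shRNA7, and without YWHAE, which has no peak upon shRNA7, it was 3.62 and 7.24.

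**Figure D3:**
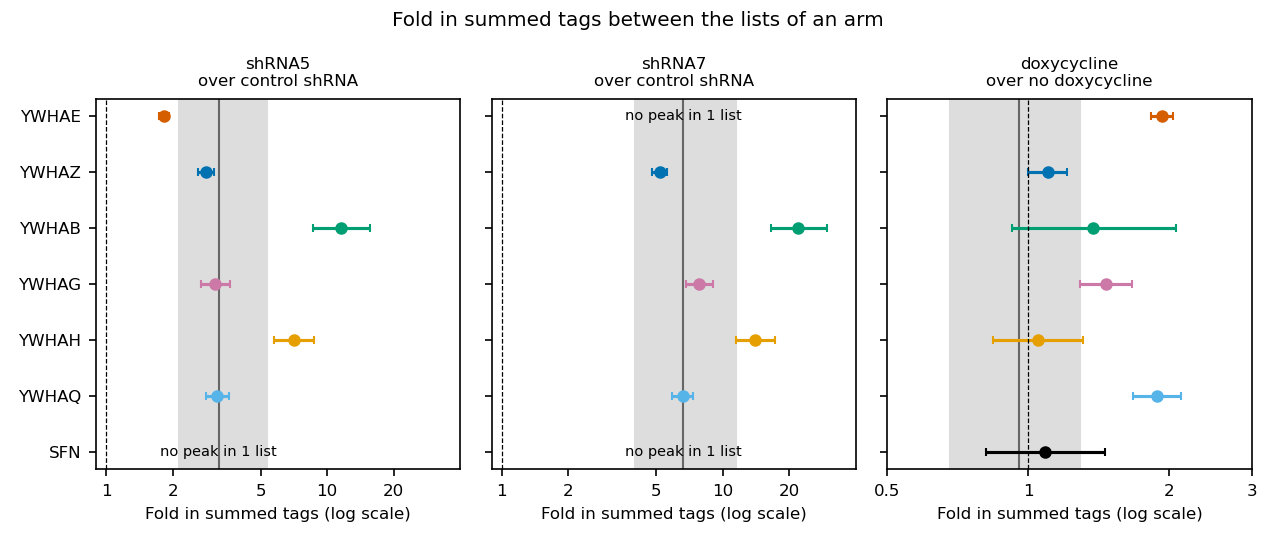
Fold in summed tags of each member (points, with exact 95% counting intervals, log axis) for shRNA5 and shRNA7 over control shRNA and for doxycycline over no doxycycline. The grey band is the middle 50% of all genes with a peak in both lists and the grey line their median, and YWHAB and YWHAH lie right of the band in the 2 hairpin panels, while YWHAE, YWHAB, YWHAG and YWHAQ do so in the doxycycline panel.

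With doxycycline tags were higher for 7 of 7 members, against 45.6% of 10608 genes, and their median fold was 1.38 against 0.957. None reached 2-fold in either direction, against 6.45% of genes higher and 12% lower. The interval left out 1 for YWHAE, YWHAG and YWHAQ alone, and the folds of YWHAZ, YWHAB, YWHAH and SFN were 1.1, 1.38, 1.05 and 1.09. The direction over all 7 also rested on weak peaks: with peaks of a significance score of at least 100, YWHAH had a fold of 0.744, YWHAB had no peak left with doxycycline, and 51.6% of genes were higher. The family sum was 1.65 times higher with doxycycline and 1.36 times without YWHAE.

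The position of the tags was then compared, a split chosen after the values were seen. Over the start site, 5 of 6 members with such a peak in both lists had fewer tags with doxycycline than without: YWHAZ 272 against 300, YWHAB 19 against 32, YWHAG 127 against 144, YWHAH 119 against 129 and YWHAQ 120 against 146. Each of these differences was within counting error, and 48.8% of 8476 genes were lower in the same way. YWHAE was the exception, with 1351 against 732 (1.85, 1.69 to 2.02). In their other peaks all 7 members had more tags, with folds of 1.22 (YWHAZ), 3.31 (YWHAB), 1.79 (YWHAG), 1.58 (YWHAH), 2.42 (YWHAQ), 1.98 (YWHAE) and 1.22 (SFN), against 51.6% of 6158 genes. The intervals of YWHAH and SFN included 1. The YWHAB value is 43 against 13 tags, and its only such peak without doxycycline lay past the gene end, so it is not a fold over the gene body. Fewer tags at the start together with more elsewhere were found in 5 of 6 members, against 23.8% of 4166 genes. This split depends on where each list cuts its peaks. For YWHAZ a doxycycline peak of 37 tags, counted among the other peaks, lay inside the start-site peak without doxycycline. For YWHAG another such peak, of 56 tags, reached into the start-site peak without doxycycline. The count is therefore not read as a shift of RNAPII. The start-site peaks were also shorter with doxycycline, except that of YWHAE, and density in tags per kb was higher in all 6, by 1.02 to 1.5 times. Tags and density of the same peak thus pointed opposite ways for 5 members. The share of all genes with a higher density is not given here, so neither count is read as particular to the members.

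**Figure D4:**
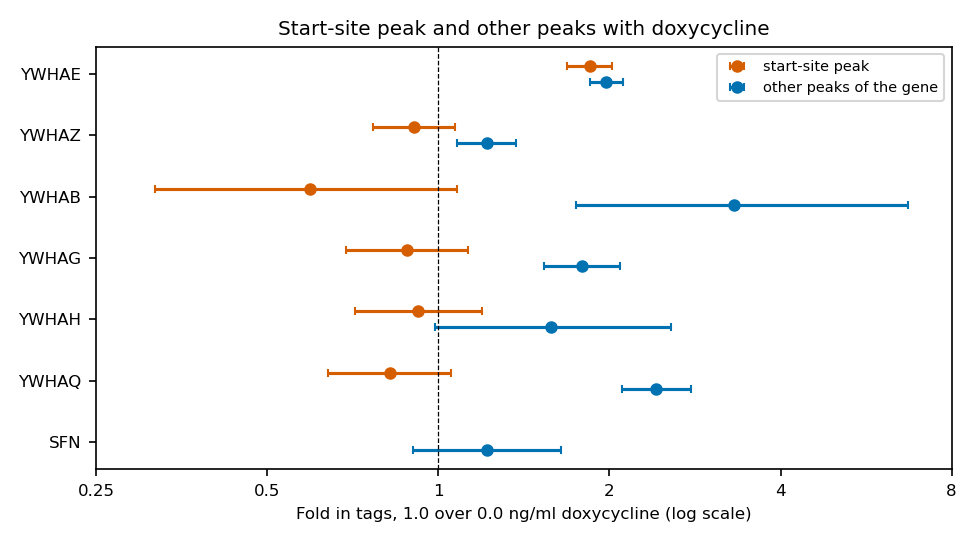
Fold in tags with 1.0 over 0.0 ng/ml doxycycline (log axis) for the start-site peak and for the other peaks of each member, with exact 95% counting intervals. Start-site points lie left of 1 for all members shown but YWHAE, and the points of the other peaks lie right of 1. SFN has no start-site peak with doxycycline and so no such point.

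The summits of the start-site peaks kept to a narrow stretch just inside the gene in most members. They lay 7 to 35 bp past the start of YWHAQ, and 56 to 158 bp past that of YWHAG, YWHAE, YWHAH and YWHAB, in each list that held a peak. YWHAZ, with summits over 1 kb inside, and SFN, with its summit before the start, stood apart.

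**Figure D5:**
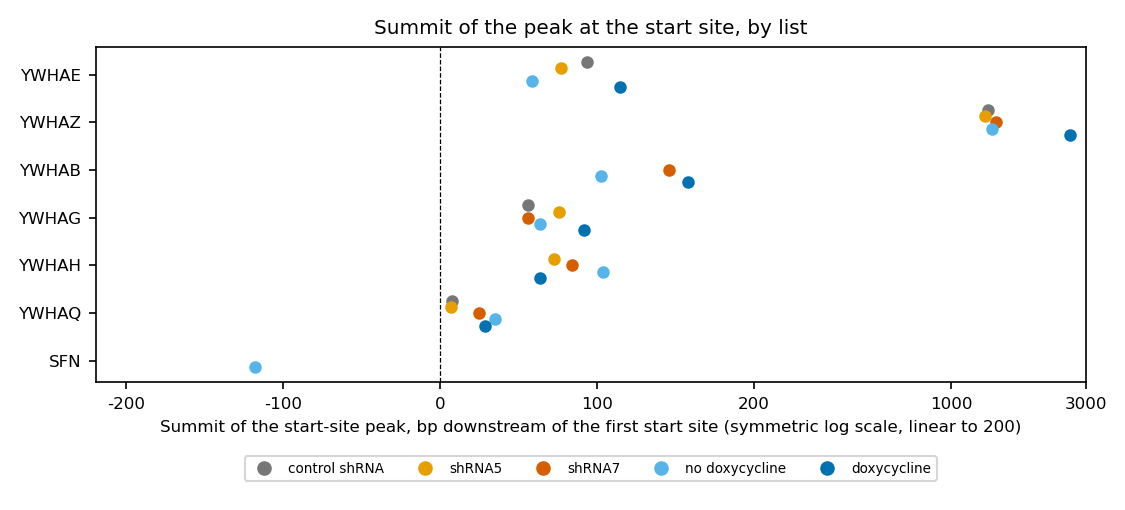
Distance in bp from the first protein-coding start site to the summit of the start-site peak, positive along transcription (linear to 200 bp, then log), 1 point per list. Points of YWHAE, YWHAB, YWHAG, YWHAH and YWHAQ lie within 158 bp downstream of the start, those of YWHAZ beyond 1 kb, and the single SFN point 118 bp upstream.

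Known partners of 14-3-3 proteins give a comparison within the pathway. Of 36 such clients 14 had a peak in control shRNA, 32 upon shRNA5, 35 upon shRNA7, 35 at 0.0 ng/ml doxycycline and 32 at 1.0 ng/ml. Upon shRNA5 13 of the 14 in both lists were at least 2-fold higher (median 5.04) and upon shRNA7 14 of 14 (median 13), while with doxycycline 2 of 31 were at least 2-fold higher, 6 at least 2-fold lower and 15 higher by any amount (median 0.788). The medians over all genes were 3.23, 6.64 and 0.957, and the shares of all genes were 78.8% and 95.7% at least 2-fold higher upon shRNA5 and shRNA7, and 6.45% at least 2-fold higher, 12% at least 2-fold lower and 45.6% higher by any amount with doxycycline, so the hairpin counts were near the background. Of all genes, 22.7% had a peak in control shRNA, 52.6% upon shRNA5 and 60.6% upon shRNA7. The shares were 64.2% at 0.0 ng/ml doxycycline and 53.6% at 1.0 ng/ml. The clients' shares were above these in every list, and their median folds upon both hairpins were above those of all genes. The reason was not tested. WEE1, which restrains entry into mitosis, had 156, 1331 and 2233 tags in control shRNA, shRNA5 and shRNA7, and 351 and 465 without and with doxycycline. FOXO3, a transcription factor kept in the cytoplasm, had 77, 1110, 4072, 401 and 276 in the same order, and AKT1S1, an inhibitor of mTORC1, 246, 542, 3637, 99 and 78. ABL1, a tyrosine kinase of the stress response, had 154, 1862, 2374, 331 and 368, and LARP1, an RNA-binding protein, had no peak in control shRNA and then 756, 1852, 286 and 331. WEE1 was higher with doxycycline (1.32, 1.15 to 1.53), as were YWHAE, YWHAG and YWHAQ, whereas FOXO3 was lower (0.688, 0.588 to 0.804).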

How the data were processed

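RNAPII ChIP-seq peak lists of 5 libraries were used. Per the submitters' processing notes, reads were processed with CASAVA 1.8, aligned with Bowtie 0.12.7 and called with MACS 1.4.2 against IgG. The deposited positions are on hg19 (GRCh37). The deposited tag number of a peak is a raw count made by the authors. The score deposited with each peak is 10 times the −log10 of the authors' p-value, the fold enrichment is the authors' ratio of a peak over its local background, and the FDR is given by the authors in percent.

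Peaks were assigned to protein-coding genes of GENCODE 44 lifted to GRCh37 by an overlap of at least 1 bp with the gene span widened by 500 bp, and their tags were summed per gene. A start-site peak lay within 500 bp of the first protein-coding start site. Folds are ratios of summed tags, with exact (Clopper-Pearson conditional) 95% intervals. Annotated gene bodies may differ from those used by the authors. The computation used Python 3.11.15, pandas 2.3.3 and scipy 1.17.1, and was tested on simulated data.

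The genes and gene lists were chosen with earlier results of these data known. Named were the 7 members, genes sharing their peaks, the 3 genes nearest to YWHAE and, per role, the client with most tags, of which 1 is not reported here. Nearness was measured over 4 lists in place of 5, since YWHAE had no peak upon shRNA7. HNRNPC and RBM39 fall outside this rule and were named after their values were seen. Approximate read totals stated in the methods of the study, which were alike for the samples of an arm, entered no calculation, and the peak lists themselves hold only tags inside peaks. Alternatives were stricter peaks, other gene windows, merged peaks, other start-site windows and, added after seeing the data, YWHAE or YWHAB left out.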

Additional observations from a re-analysis of the deposited data

Results flagged for a closer look

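The lists of the hairpins against RECQL5 differed over YWHAE: against 2572 tags in control shRNA, shRNA5 gave 4695 tags and the shRNA7 list held no peak. An unlisted peak is not a measured decrease, and 180 of 4475 genes with a peak in each of the other 4 lists were unlisted upon shRNA7 in the same way. The other members with a peak in all 3 hairpin-arm lists had more tags upon both hairpins. The difference between the hairpins was not tested, since each was 1 library.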

How the results depend on the processing

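Of 107 recomputed values of the family 83 were classed as the same as the reported ones, 24 as moved and 0 as reversed. Counts were given more room than ratios. With the summit required in the widened span, 20 gene-body peaks upon shRNA5 became 15 and were classed as the same. Folds of single members were not among these values, and that of YWHAH with doxycycline did change direction, as given above. In control shRNA 3 members in place of 6 had a peak with a score of at least 100. Gene-body peaks here are assigned peaks that touch no 500 bp window around a protein-coding start site of the gene. They include peaks with a summit past the gene end, such as that of YWHAB in control shRNA and those of SFN. Their counts are given without the same count over all genes. Gene-body peaks of the members (9, 20 and 19 in the control, shRNA5 and shRNA7 lists, 61 without doxycycline and 60 with it) became 5, 12, 32 and 25 in the lists other than shRNA7 at a score of at least 100, became 5, 5, 6 and 25 in the lists other than no doxycycline at a fold enrichment of at least 10, and became 4, 13, 9, 14 and 24 when peaks under 1 kb apart were merged. The family's ratio of tags upon shRNA5 (2.49) was 2.92 at a score of at least 100, 2.1 at a fold enrichment of at least 10, 2.31 when the summit had to lie in the widened span, 3.62 without YWHAE and 2.37 without YWHAB. Upon shRNA7 (2.67) it was 3.2 at a score of at least 100, 7.24 without YWHAE and 2.43 without YWHAB, and with doxycycline (1.65) it was 1.49 at a fold enrichment of at least 10 and 1.36 without YWHAE. Why these values moved was not tested. No paired analysis was possible because the groups hold 1 library each and nothing was tested, and for the same reason no replicate could be left out. The lists hold tags inside peaks only, and the fewest tags of a listed peak differ between the arms.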

Other observations

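Pseudogenes of the family are full or partial near-copies to which reads can map. The annotation gives 25 of them (9 of YWHAZ, 8 of YWHAQ, 6 of YWHAE and 2 of YWHAB), all processed except YWHAEP7. A peak touched 2 of the 25: YWHAQP6 on chromosome 3 upon shRNA7, with 55 tags, and YWHAZP3 on chromosome 10 with doxycycline, with 13 tags. The share of all annotated pseudogenes touched by a peak is not given here. No pseudogene of YWHAE or YWHAB was touched in any of the 5 lists.

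The 3′ reach of the peaks assigned to a member (those touching the gene widened by 500 bp) differed between the hairpin lists. The last peak ran past the annotated end by 3.84 kb upon shRNA5 and 4.95 kb upon shRNA7 for YWHAZ (2.04 kb in control shRNA) and by 1.59 and 3.63 kb for YWHAH, whose last control peak ended 8.34 kb before its end. For YWHAB it ran 2.7 and 3.47 kb past (1.77 kb in control shRNA), over the start of PABPC1L. YWHAE reached 2.98 kb past its end in control shRNA, 5.02 kb upon shRNA5 and 2.21 to 2.22 kb in the doxycycline arm. In the hairpin arm the lists with more tags reached farther for the members named here that they hold, and the part of depth in this was not tested.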
